A study of Homo sapiens with 12 samples.

Results

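The cytosolic ribosomal protein genes were described across control and GFI1-expressing A549 cells that were attached or floating. A gene was taken when the count table gave it as protein coding and its symbol was that of a large (RPL, RPLP) or small (RPS, RPSA) subunit protein, with the Y-linked copies of RPS4 left out. This gave 81 members among the 58735 genes of the table, 49 of the large and 32 of the small subunit, on 21 chromosomes. A low-count filter passed 17829 genes and 80 of the members. The member that did not pass was RPL10L, a copy of RPL10 known from the testis, with at most 1 count in a library.

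A549 is an established line of human lung adenocarcinoma, and GFI1 is a DNA-binding repressor best known from the blood lineages. The study asked how GFI1 changes cancer cells that have lost their substrate, and mRNA was sequenced from 4 groups of 3 libraries. Control cells and GFI1-expressing cells were grown in the same serum-containing medium and were either left attached or forced into suspension for 48 hours. GFI1 was carried by a lentiviral vector with a human PGK promoter and a GFP marker, and sorted GFP-positive cells were used for RNA-Seq. The labels name no vector for the controls, while the methods give an empty vector for the control A549 cells of the animal assays and do not say so for the sequenced ones. The labels also do not say whether replicates were separate cultures, so p-values measure the spread between these libraries only.

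The cytosolic ribosome is built from ribosomal RNA and one copy of nearly every ribosomal protein, so the mRNAs of these genes are among the most abundant in a growing cell. Most of these mRNAs begin with a run of pyrimidines, the terminal oligopyrimidine (TOP) motif, through which mTOR signalling and LARP1 control their translation and stability. Several genes have a close copy (paralog) that is expressed in fewer tissues and can replace the parent protein in the ribosome.

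The start of the transcript was read from RefSeq windows (GRCh38.p14), which were given for 64 of the 81 members. A run was defined as a C followed by at least 4 pyrimidines (C or T), beginning within 5 bases of an annotated start. Such a run was found in 53 of these 64 members (82.8%) and in 25.2% of 27305 genes. The start base itself was a C followed by at least 4 pyrimidines in 71.9% of the members and 5.14% of the genes. Shown here are 30 bases per gene, 12 before the annotated start and 18 from it. The run is in capitals from its first C within 5 bases of the start. In RPL13A and RPL29 further pyrimidines directly precede the capitals, and the run of RPL39, of 22 bases, goes on past the printed window. RPS16 and RPL29 are shown because the test called their GFI1 effect different between the culture states. Both lost this call when some single libraries were left out, and RPL29 also in other settings. RPL13A was higher in floating control cells, and RPL35 had the largest fall of the abundant members with GFI1 in attached cells. RPL39, RPL22 and RPS27 are shown as parents of a paralog.
RPS16 (minus strand, chr19:39435932-39435961): gcccctagCTTTCCTTTTCCggttgcggcg
RPL29 (minus strand, chr3:51995878-51995907): cgcagccCCTTTCTCTTCCggttctaggcg
RPL13A (plus strand, chr19:49487596-49487625): caaaacctCCTCCTTTTCCaagcggctgcc
RPL35 (minus strand, chr9:124861940-124861969): cccgcctaCTTCCTCTTTCCCTCggagcgg
RPL39 (minus strand, chrX:119791613-119791642): ttccgccagCTTCCCTCCTCTTCCTTTCTC
RPL22 (minus strand, chr1:6199578-6199607): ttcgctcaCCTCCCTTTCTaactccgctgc
RPS27 (plus strand, chr1:153990750-153990779): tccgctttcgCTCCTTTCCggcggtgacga

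The next windows hold no such run near the start. RPS27L and RPL15 are shown because they were the members whose change with GFI1 in attached cells was highest and did not pass the test, and RPS26 because it had the largest fall of the abundant members with suspension of GFI1 cells. RPL15 has 3 annotated starts, of which the first is printed.
RPS27L (minus strand, chr15:63157460-63157489): ttgatgccgagcgcagatcgcttgcagctt
RPL15 (plus strand, chr3:23916533-23916562): gctggggcctgctggaggagcttcacgcag
RPS26 (plus strand, chr12:56041906-56041935): acacataacctcgattttcttccgccatcc
The letters AAATCA, which hold the AATC core of the known GFI1 motif, occurred on either strand of the 300-base windows of 3 members (4.69%) and of 15.6% of all genes. A match or its absence describes these letters only.

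Total counts ran from 17014188 to 20748677 per library. GFI1 itself was at 0.238 to 0.710 CPM (counts scaled to a common library total, with TMM factors) in the 6 control libraries and at 285 to 704 CPM in the 6 GFI1 libraries, as labelled. Of the epithelial markers, KRT8 and KRT18 were abundant in every library, EPCAM and KRT19 had 6 to 45 and 13 to 89 counts, and CDH1 had 66 to 2186. The alveolar type II markers SFTPA1, SFTPB, SFTPC and NKX2-1 summed to at most 2.81 CPM, with SFTPA1 at 3 counts or fewer. One library, floating GFI1 replicate 3, stood apart from its group on the second principal component, and counts that it moves are given without it as well. Replicates differed by more than sampling noise in every group, with a chi-square per gene of 2.01 to 11.8.

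Ribosomal protein mRNA took a smaller share of all counts in GFI1 cells, attached or floating, and the shares of attached and floating control cells overlapped. The 81 members held 5.45%, 5.07% and 5.21% of the counts in the attached control libraries and 4.40%, 4.16% and 4.17% in the attached GFI1 libraries. They held 5.33%, 5.32% and 5.26% in the floating control libraries and 3.97%, 4.12% and 3.76% in the floating GFI1 libraries. All 6 GFI1 libraries lay below all 6 control libraries, while the control groups overlapped. The group means were 5.25% ± 0.19, 4.24% ± 0.13, 5.30% ± 0.04 and 3.95% ± 0.18 (SD, n = 3 each) in that order.

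In bulk libraries of this kind, fewer cells that make an mRNA and less of it per cell cannot be told apart. Each library is also scaled to its own total, so a lower share of ribosomal protein mRNA is a share and not an amount per cell. The summed epithelial markers moved with GFI1 too, from between 8295 and 8808 CPM in attached control libraries to between 2474 and 2560 CPM in attached GFI1 libraries, and from between 5288 and 5652 CPM to between 1891 and 2193 CPM in floating cells. Fibroblast markers, with 2 of 4 at no more than 3 counts, summed to 12.6 to 14.3 CPM in attached control and 6.15 to 7.43 CPM in attached GFI1 libraries, and to 9.90 to 11.1 CPM and 3.41 to 4.68 CPM in floating cells. Blood cell markers, with 3 of 4 at no more than 3 counts, overlapped between control and GFI1 libraries in attached cells and summed to 10.0 to 13.8 CPM and 6.41 to 7.21 CPM in floating cells. The summed epithelial and fibroblast markers thus shifted downward with GFI1 in both states, and KRT8, KRT18 and COL1A1 made up most of these sums. KRT19 went the other way, from a mean of 1.11 to 1.97 CPM in attached and 1.90 to 2.79 CPM in floating cells. PDGFRA rose from 0.34 to 0.44 CPM in attached and fell from 1.30 to 0.50 CPM in floating cells. Alveolar markers were at 0.57 to 0.90 CPM in floating control and 1.94 to 2.81 CPM in floating GFI1 libraries, and overlapped in attached cells. Endothelial markers were at 0.11 to 0.60 CPM in control and 3.55 to 5.51 CPM in GFI1 libraries. The part of these shifts in the ribosomal protein result was not tested.

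**Figure D1:**
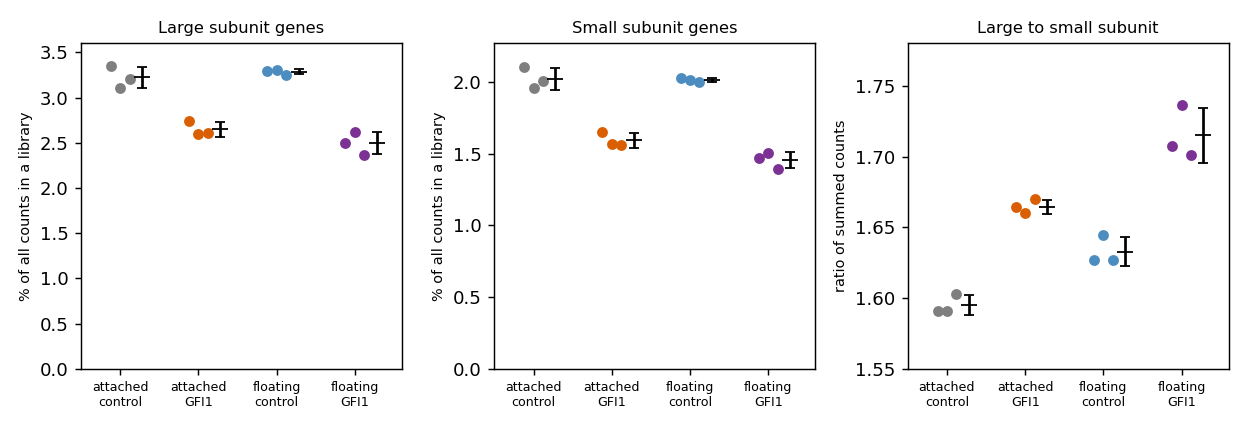
Share of all counts held by large (left) and small (middle) subunit genes, in percent, and the ratio of their summed counts (right), in each library (coloured points) with the group mean and SD (black, n = 3). The ratio axis does not start at 0. Both shares were lower in GFI1 libraries, and the ratio rose from 1.59 in attached control to 1.71 in floating GFI1 libraries.

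Both subunits fell, and the large subunit kept slightly more of its counts. The ratio of large to small subunit counts was 1.59, 1.59 and 1.60 in attached control libraries and 1.66, 1.66 and 1.67 in attached GFI1 libraries. It was 1.63, 1.64 and 1.63 in floating control libraries and 1.71, 1.74 and 1.70 in floating GFI1 libraries. No 2 groups overlapped, and the order was attached control, floating control, attached GFI1, floating GFI1. Most of this shift lay in the abundant small subunit genes RPS2 and RPS16, which were chosen after their values were seen. RPS2 fell from 10.2% of small subunit counts in attached control to 7.66% in floating GFI1 libraries, and RPS16 from 8.53% to 7.13%. Without both genes, the ratio was 1.96 ± 0.009, 1.99 ± 0.002, 1.97 ± 0.003 and 2.01 ± 0.028 (SD, n = 3) in attached control, attached GFI1, floating control and floating GFI1 libraries.

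GFI1 lowered nearly every ribosomal protein gene in attached cells. Of the 80 tested members, 77 were lower and 0 higher at an adjusted p of at most 0.05, in the quasi-likelihood test of edgeR, adjusted by Benjamini-Hochberg over all genes tested, which is the test meant wherever an adjusted p is given. Among all genes tested, 32.8% were called lower and 29.5% higher in this comparison, 62.3% in all. The median log2 fold change of the members was -0.46 (middle 50% from -0.54 to -0.39), against -0.0066 over all genes. The large subunit had 46 of 48 genes lower and the small subunit 31 of 32, with medians of -0.46 and -0.46. The groups did not overlap for 77 members, all lower, against 34.8% of all genes lower without overlap. At an unadjusted p under 0.05, 0 members were higher, and DESeq2 called 0 higher.

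GFI1 also lowered them in floating cells. Here 78 of the 80 members were lower and 0 higher, while 31.1% of all genes were called lower and 29.3% higher, 60.4% in all. At an unadjusted p under 0.05, 0 were higher, and DESeq2 called 0 higher. The median was -0.57 (middle 50% from -0.63 to -0.47), against 0.01 over all genes. All 48 tested large subunit genes and 30 of the 32 small subunit genes were lower, with medians of -0.56 and -0.59. Control and GFI1 libraries did not overlap for 79 members, against 32.7% of all genes lower without overlap. For the 71 members with a mean of at least 100 CPM, the median level in GFI1 cells was 73.5% (large) and 72.6% (small) of control in attached cells, and 68.4% and 65.8% in floating cells.

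Among the 71 more abundant members, the log2 change with GFI1 had its extremes at -0.71 and 0.02 in attached cells and at -0.92 and -0.10 in floating cells, with an SE between 0.040 and 0.063. Across these 71 genes, which share their libraries, the change had a Pearson's r of -0.016 attached and -0.16 floating with the mean log2 level. Comparing the changes in attached with those in floating cells, which share no library, gave r = 0.81 and Spearman's rho = 0.77 over these 71 genes, beside r = 0.90 over all 17829 genes. The 53 members with a pyrimidine run had medians of -0.46 and -0.57, and the 10 tested members without one had -0.44 and -0.56, in attached and floating cells. The 28 members that hold a small nucleolar RNA gene within their bounds had medians of -0.46 and -0.59, beside -0.46 and -0.55 for the other tested members.

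**Figure D2:**
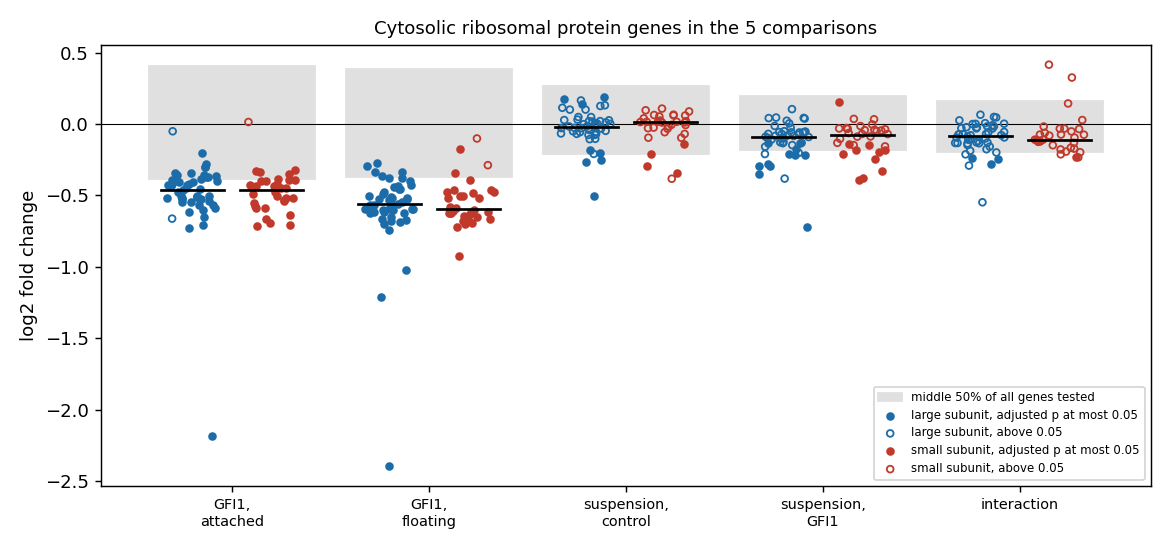
Log2 fold change of each tested member (points) in the 5 comparisons, by subunit, with filled points at an adjusted p of at most 0.05, black lines at the medians and grey boxes over the middle 50% of all genes tested. Nearly all members lay below 0 with GFI1, with medians of -0.46 and -0.57, and they lay around 0 with suspension of control cells.

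RPL5 and RPL11, which carry the 5S ribosomal RNA into the subunit and can bind MDM2 when assembly fails, fell in both states. RPL5 stood at 599, 611 and 571 CPM in attached control and 430, 399 and 408 CPM in attached GFI1 libraries, a log2 change of -0.53 ± 0.051 (SE, adjusted p = 1.7e-09). RPL11 stood at 489, 445 and 461 CPM against 322, 292 and 308 CPM, a change of -0.60 ± 0.049 (adjusted p = 6.2e-11). The groups were apart for both, and the changes in floating cells were -0.63 and -0.60.

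The stalk proteins RPLP0, RPLP1, RPLP2 and RPL12, which recruit the elongation factors, fell in both states as well. RPLP0 was at 2134, 1912 and 2012 CPM in attached control and 1589, 1555 and 1531 CPM in attached GFI1 libraries, a change of -0.37 ± 0.051 (SE, adjusted p = 6.2e-07), and it changed by -0.53 in floating cells. Its partner RPLP1 changed by -0.34 in both states, and RPLP2 by -0.57 and -0.60. RPL12, at the stalk base, changed by -0.50 and -0.58.

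All 8 proteins that line the exit of the nascent chain were lower in both states, with medians of -0.49 attached and -0.57 floating. So were 77 and 78 of all 80 tested members, beside 32.8% and 31.1% of all genes tested. RPL35 had one of the largest falls of any abundant member. It was at 698, 752 and 679 CPM in attached control and 474, 407 and 423 CPM in attached GFI1 libraries, a change of -0.71 ± 0.052 (SE, adjusted p = 7.9e-12). The floating libraries had 618, 569 and 586 CPM against 349, 364 and 350 CPM, a change of -0.74 ± 0.052 (adjusted p = 4.0e-12). The GFI1 libraries were below every control library in each state.

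At the small subunit, RPS2 and RPS3 sit at the entry of the mRNA, and RPS14, RPS26 and RPS28 at its exit. All 5 were lower in both states, as were 77 (attached) and 78 (floating) of the 80 tested members, beside 32.8% and 31.1% of all genes. RPS2 was at 2286, 2115 and 2146 CPM in attached control and 1438, 1347 and 1353 CPM in attached GFI1 libraries, a change of -0.66 ± 0.053 (SE, adjusted p = 4.4e-11). Floating control libraries had 1780, 1624 and 1755 CPM of RPS2 against 1057, 1155 and 978 CPM, a change of -0.69 ± 0.053 (adjusted p = 1.9e-11). All 4 groups of RPS2 were apart from one another, since suspension lowered it too.

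RPS16, a small subunit protein near the decoding site, had the largest fall of any abundant member in floating cells. It was at 1884, 1793 and 1788 CPM in attached control and 1179, 1146 and 1061 CPM in attached GFI1 libraries. Floating control libraries had 1900, 1858 and 1863 CPM and floating GFI1 libraries 1001, 1024 and 939 CPM, without overlap in either state. The change was -0.69 ± 0.045 (SE, adjusted p = 9.1e-13) in attached and -0.92 ± 0.045 (adjusted p = 2.8e-15) in floating cells, which left it at 62.0% and 52.7% of control.

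A few members did not follow. RPS27L, a copy of RPS27 that is known as a p53 target, was at 187, 171 and 171 CPM in attached control and 187, 167 and 182 CPM in attached GFI1 libraries. The floating libraries had 163, 167 and 166 CPM against 151, 150 and 161 CPM. The groups overlapped in attached cells, while in floating cells the GFI1 libraries lay below all control libraries. The changes of 0.02 ± 0.048 (SE, adjusted p = 0.80) attached and -0.10 ± 0.048 (adjusted p = 0.076) floating did not pass the test. Under scaling by library size alone, RPS27L was higher in attached cells (0.16, adjusted p = 0.0045). The sign there changed without the low-count filter and when attached control replicate 2, attached control replicate 3 or attached GFI1 replicate 1 was left out.

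RPL15, a large subunit protein, did not pass the test in attached cells and fell in floating cells. It was at 1196, 1033 and 1126 CPM in attached control and 1075, 1115 and 1049 CPM in attached GFI1 libraries, which overlapped (-0.05 ± 0.051, SE, adjusted p = 0.41). Floating control libraries lay at 1275, 1329 and 1220 CPM against 1036, 1093 and 985 CPM, a change of -0.30 ± 0.051 (adjusted p = 1.8e-05). The attached change was 0.097 under scaling by library size alone and 0.0026 under upper quartile scaling. RPL22, which also binds viral and cellular RNAs outside the ribosome, had the next smallest fall in attached cells (-0.20 ± 0.051, adjusted p = 0.0010), a call that was lost under library size scaling (-0.058, adjusted p = 0.33).

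**Figure D3:**
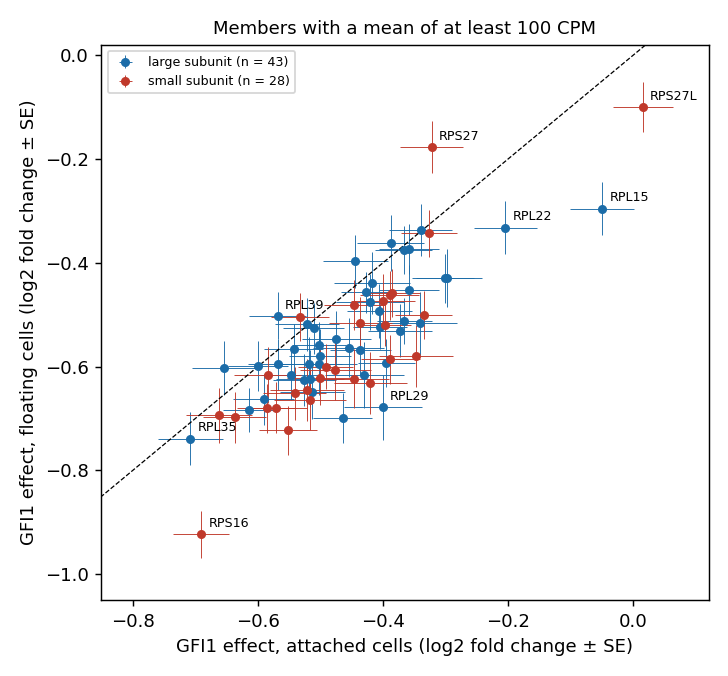
Log2 fold change with GFI1 in attached (x) against floating cells (y) for the 71 members with a mean of at least 100 CPM, with SE bars, coloured by subunit. The dashed line marks equal changes. Most genes lay below it, RPS16 was lowest on the y axis at -0.92, and RPS27L and RPL15 lay farthest right at 0.02 and -0.05.

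Of the members, 10 averaged under 100 CPM, and several of their counts are uncertain. RPS10, RPL17, RPL36A, RPL26 and RPS15A overlap another protein-coding gene, such as the readthrough genes RPS10-NUDT3, RPL17-C18orf32 and RPL36A-HNRNPH2, and reads in the shared part could be lost or split. Such overlap was not confined to low members, since 36 of the 81 members overlapped another protein-coding gene, abundant ones among them. RPS10 was at 1.49 to 2.22 CPM in attached control and 0.95 to 1.29 CPM in attached GFI1 libraries (-0.70 ± 0.26, SE, adjusted p = 0.022), and its change of -0.29 in floating cells did not pass (adjusted p = 0.38). RPL17 fell by 0.73 and 1.02 on the log2 scale in attached and floating cells. RPL3L, a heart and muscle form of RPL3, had 3 to 16 counts per library, and its call in floating cells (-1.21 ± 0.48, adjusted p = 0.034) was lost with DESeq2.

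Levels between genes were compared per kilobase of the GENCODE MANE Select transcript. These lengths had a median of 970 bases in large and 736.5 bases in small subunit genes, and that of RPL37 was 7573 bases. The order of genes and the subunit medians therefore depend on the transcript chosen. The highest mean levels were those of RPS16, RPL13A and RPS2, at 2303, 2081 and 1678 CPM per kilobase over the 12 libraries, and the lowest those of RPL10L, RPL3L and RPS10, at 0.013, 0.22 and 2.35. The order changed between groups. In attached control libraries RPS16 was at 2887 ± 86.0 CPM per kilobase (SD, n = 3), ahead of RPS2 at 2309 ± 96.6 and RPL13A at 2293 ± 62.7, which did not differ beyond their spread. In floating GFI1 libraries RPL13A was at 1747 ± 113, RPS16 at 1566 ± 69.6 and RPLP0 at 1357 ± 108, and RPS2 ranked 6 at 1125 ± 94.2. The median over small subunit genes was 751 in attached control, 537 in attached GFI1, 750 in floating control and 523 in floating GFI1 libraries, and over large subunit genes it was 552, 431, 565 and 433, all in CPM per kilobase.

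Suspension of control cells changed few ribosomal protein genes. Of the 80 members, 3 were higher and 9 lower, while 19.6% of all genes were called higher and 20.6% lower, 40.1% in all. The groups did not overlap for 5 higher and 15 lower members, against 24.7% and 25.2% of all genes. The median change was -0.0055, with medians of -0.02 in the large and 0.01 in the small subunit. The higher genes were RPL15 (0.19 ± 0.051, SE), RPL13A (0.18 ± 0.048) and RPL10 (0.14 ± 0.048), with adjusted p of 0.0042, 0.0049 and 0.022. With the gene length offset RPL13A and RPL10 were lost (adjusted p = 0.054 and 0.096), and RPL10 was also lost without attached control replicate 2 or 3 or floating control replicate 1 or 2 (adjusted p from 0.073 to 0.13). The lower ones included RPL39L, RPS2, RPL35, RPL36, RPS26, RPL8, RPLP2 and RPSA, of which those outside the naming rule were named after their values were seen.

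RPL13A, a large subunit protein also known to silence inflammatory mRNAs, was at 2666, 2538 and 2550 CPM in attached control and 2981, 2903 and 2871 CPM in floating control libraries, without overlap. In GFI1 cells it was at 2038, 1822 and 1871 CPM attached and 1944, 2107 and 1855 CPM floating, which overlapped (0.04 ± 0.048, SE, adjusted p = 0.55). RPL10, which closes the maturation of the large subunit, was at 1181 to 1294 CPM in attached and 1307 to 1386 CPM in floating control libraries. Leaving out one library changed the number of higher members, from 1 without attached control replicate 2 to 9 without attached control replicate 1. It was 7 without floating GFI1 replicate 2, and 2 without attached control replicate 3, floating control replicate 1 or floating control replicate 2.

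Suspension of GFI1 cells lowered more members. Of the 80, 1 was higher and 21 were lower, while 15% of all genes were called higher and 16.3% lower, 31.3% in all. The groups did not overlap for 1 higher and 23 lower members, against 20.2% and 21.2% of all genes. The median was -0.09, with -0.09 in the large (11 of 48 lower) and -0.08 in the small subunit (10 of 32 lower). The lower count was 41 without floating GFI1 replicate 2 and 17 without floating GFI1 replicate 3, the library that stood apart. With an offset for gene length it was 35, and 18 in control cells, where the higher members numbered 0 and 1.

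Falls of abundant members with suspension of GFI1 cells included those of RPS26, RPS2 and RPL36, a large subunit protein named here after its value was seen. RPS26 was at 226, 256 and 212 CPM in attached GFI1 and 170, 184 and 175 CPM in floating GFI1 libraries, a change of -0.39 ± 0.057 (SE, adjusted p = 6.5e-06). RPS2 changed by -0.38 ± 0.053 (adjusted p = 4.0e-06) and RPL36 by -0.35 ± 0.061 (adjusted p = 7.3e-05). In control cells these genes changed by -0.21, -0.34 and -0.25, all lower by the test. The groups were apart for RPS26 in both genotypes.

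The higher member was RPS27, a zinc-finger protein of the small subunit, at 347, 311 and 319 CPM in attached GFI1 and 352, 383 and 353 CPM in floating GFI1 libraries (0.16 ± 0.050, SE, adjusted p = 0.019). The groups did not overlap. This call was lost when attached GFI1 replicate 2, attached GFI1 replicate 3 or floating GFI1 replicate 2 was left out (adjusted p from 0.075 to 0.15), and with the gene length offset (adjusted p = 0.051). The suspension effects in control and GFI1 cells, which share no library, had r = 0.69 and rho = 0.56 over the 71 more abundant members, beside r = 0.54 over all genes.

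The interaction, the GFI1 effect in floating minus that in attached cells, was called for 4 members, all negative, and for 0 in the positive direction (1 at an unadjusted p under 0.05, 0 by DESeq2). The 4 were 5% of the 80 members tested, a share near that of all genes. Among all genes tested, 6.01% were called negative and 4.76% positive, 10.8% in all. The median over members was -0.09, with 68 of 80 below 0, and it was -0.08 in the large and -0.11 in the small subunit. They included RPS16 (-0.23 ± 0.064, SE, adjusted p = 0.018), RPL15 (-0.25 ± 0.072, adjusted p = 0.027) and RPL29 (-0.28 ± 0.088, adjusted p = 0.041). RPL15 is named here after its value was seen.

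RPL29, a large subunit protein also found at the cell surface as a heparin-binding protein, was at 613, 547 and 548 CPM in attached control and 437, 451 and 406 CPM in attached GFI1 libraries. Floating libraries of RPL29 had 584, 610 and 495 CPM against 356, 367 and 333 CPM. The GFI1 libraries lay below the controls in both states, and the floating GFI1 libraries lay lowest.

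The number of members with a negative interaction depended on single libraries. It was 0 without attached control replicate 3, attached GFI1 replicate 1 or attached GFI1 replicate 2, 1 without attached control replicate 2 or floating control replicate 1, 9 without attached control replicate 1 and 18 without floating GFI1 replicate 2. It was 3 without floating GFI1 replicate 3. The call of RPL29 was lost with the robust prior (adjusted p = 0.15), with the gene length offset (adjusted p = 0.067) and without attached control replicate 2 or 3, attached GFI1 replicate 1 or 2, floating control replicate 1 or 2, or floating GFI1 replicate 3 (adjusted p from 0.062 to 0.15). The calls of RPS16 and RPL15 were lost in the removals that left 0 such members. The value of RPS16 kept its sign and ranged from -0.28 to -0.20 over the removals of single libraries.

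**Figure D4:**
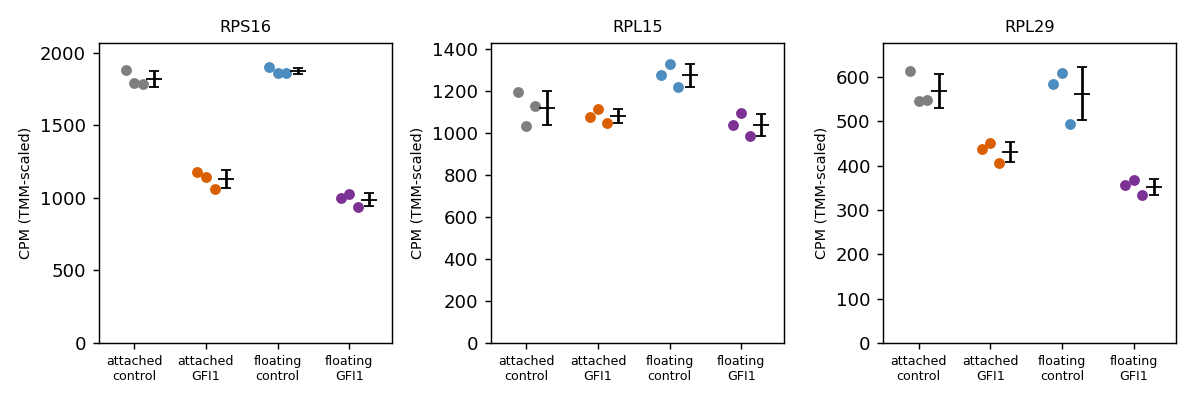
CPM (TMM-scaled) of RPS16, RPL15 and RPL29 in each library (coloured points), with the group mean and SD (black, n = 3). In RPS16 and RPL29 the floating GFI1 libraries lay lowest, while in RPL15 attached control and attached GFI1 libraries overlapped, at 1033 to 1196 and 1049 to 1115 CPM.

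Paralogs and parents were compared within each library, where scaling between libraries cancels. The log2 ratio of paralog to parent was tested by an exact two-sided permutation test of 3 against 3 libraries, whose smallest possible p is 0.1, so no pair could pass 0.05. Over the 28 tests of 7 pairs, the smallest p of 0.1 became 0.16 after Benjamini-Hochberg adjustment. RPL10L was left out, with 1 count in 2 libraries and 0 in the others, where 3 counts are taken as the floor.

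The largest shift was that of RPL39L, a form of RPL39 known from the testis and from some tumours. It had 338, 442 and 386 counts in attached control and 84, 98 and 107 in attached GFI1 libraries. The floating libraries had 277, 220 and 300 counts against 52, 40 and 75. The 4 groups did not overlap, with GFI1 libraries lowest in each state. The log2 fold changes of the gene were -2.18 ± 0.13 (SE, adjusted p = 8.6e-14) and -2.39 ± 0.15 (adjusted p = 2.0e-13) with GFI1, or 4.54-fold and 5.26-fold lower.

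The parent RPL39 changed by -0.57 and -0.50, so RPL39L went from 6.69%, 8.41% and 7.87% of RPL39 counts in attached control to 2.31%, 2.35% and 2.85% in attached GFI1 libraries. In the floating libraries the share went from 5.98%, 4.69% and 5.95% to 1.48%, 1.05% and 1.94%. The mean log2 ratio differed by -1.61 attached and -1.92 floating (exact permutation p = 0.1 each). Suspension also lowered RPL39L, by 0.51 in control and 0.72 in GFI1 cells on the log2 scale (adjusted p = 0.00057 and 0.0018).

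RPL22L1, a paralog of RPL22 outside the symbol rule that acts in RNA splicing as well, shifted likewise. It had 982, 1005 and 959 counts in attached control and 397, 507 and 514 in attached GFI1 libraries. Its counts in floating cells were 625, 660 and 644 against 182, 196 and 242. All 4 groups were apart, and both GFI1 and suspension went with lower values. The log2 changes were -1.23 ± 0.066 (SE, adjusted p = 1.7e-14) with GFI1 in attached and -1.78 ± 0.077 (adjusted p = 1.8e-16) in floating cells, and -0.57 and -1.12 with suspension of control and GFI1 cells.

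Relative to RPL22, RPL22L1 held 46.6% to 47.8% in attached control and 20.9% to 24.7% in attached GFI1 libraries, and 26.7% to 31.5% in floating control and 9.71% to 12.5% in floating GFI1 libraries. The mean log2 ratio differed by -1.03 and -1.45 with GFI1 and by -0.68 and -1.11 with suspension, each with an exact permutation p of 0.1. Its interaction was -0.55 ± 0.10 (SE, adjusted p = 0.00060).

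**Figure D5:**
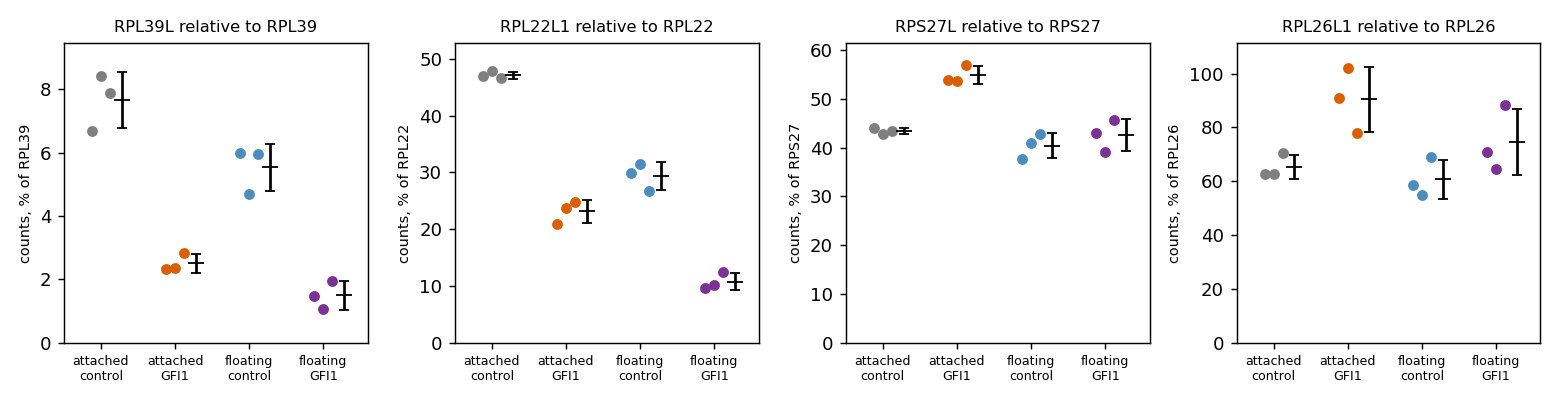
Counts of 4 paralogs as a percentage of the counts of their parent gene in each library (coloured points), with the group mean and SD (black, n = 3). RPL39L and RPL22L1 were lower relative to the parent in GFI1 libraries, whereas RPS27L was highest in attached GFI1 libraries, at 53.6% to 56.9% of RPS27.

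In attached GFI1 cells RPS27L was higher relative to its parent. It had 42.7% to 44.0% of RPS27 counts in attached control and 53.6% to 56.9% in attached GFI1 libraries, and 37.6% to 42.7% in floating control and 39.1% to 45.6% in floating GFI1 libraries. With GFI1 the mean log2 ratio differed by 0.34 in attached cells, without overlap (exact permutation p = 0.1), and by 0.08 in floating cells, with overlap (exact p = 0.4). With suspension it differed by -0.10 in control and -0.37 in GFI1 cells, without overlap in either (exact permutation p = 0.1 each). RPL26L1 relative to RPL26 differed by 0.47 attached and 0.29 floating, with overlap in floating cells. RPL36AL had 910.4% to 1310.1% of the counts of RPL36A, a parent whose reads may be lost to the readthrough gene, and the log2 ratio differed by 0.20 and 0.16, without overlap.

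The log2 ratio of RPL7L1 to RPL7 differed by -0.0020 with GFI1 in attached cells (exact permutation p = 0.9). In floating cells the difference was 0.22 (exact p = 0.1), and with suspension of control cells -0.30 (exact p = 0.1). The pair of RPL3L and RPL3 overlapped in every comparison. Of the 7 ribosomal proteins outside the symbol rule, 5 were lower in attached cells, among them FAU, RACK1, RPL7L1 and RPL22L1, and all 7 were lower in floating cells. Their median changes were -0.46 attached and -0.45 floating. Among all genes tested, 32.8% were called lower in attached and 31.1% in floating cells. The call of RPL36AL in floating cells (-0.12, adjusted p = 0.044) was lost under upper quartile scaling (adjusted p = 0.23), under library size scaling, where it was 0.013, under both other count filters, with only the groups compared and in most removals of a single library. FAU, which is made as a fusion with a ubiquitin-like protein, changed by -0.43 in attached cells, and RACK1, a signalling scaffold on the small subunit, by -0.54.

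Other mRNAs known for TOP motifs had smaller median changes. Of 14 tested translation factors and related genes of this class, 12 were lower in attached and 11 in floating cells, with 0 higher in either and medians of -0.24 and -0.31. Among all genes tested, 32.8% and 31.1% were called lower and 29.5% and 29.3% higher. EEF1B2, the exchange factor of elongation factor eEF1A, was at 289, 278 and 274 CPM in attached control and 193, 179 and 179 CPM in attached GFI1 libraries, a change of -0.61 ± 0.042 (SE, adjusted p = 2.9e-12). EEF1D, of the same complex, was at 141 to 149 CPM in floating control and 141 to 150 CPM in floating GFI1 libraries, which overlapped. EEF1G was listed at 0 counts and was not tested.

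The genes of mTOR signalling and TOP control were called in both directions, in shares near those of all genes tested. Of 17 tested, GFI1 raised 5 (29.4%) and lowered 7 (41.2%) in attached cells (median -0.10), against 29.5% and 32.8% of all genes. In floating cells it raised 6 (35.3%) and lowered 7 (41.2%, median -0.02), against 29.3% and 31.1%. EIF4EBP1, a repressor of cap-dependent translation that mTOR switches off, was at 97.5, 86.8 and 90.4 CPM in attached control and 29.3, 25.8 and 24.3 CPM in attached GFI1 libraries, a change of -1.79 ± 0.074 (SE, adjusted p = 6.9e-17). MYC, which drives ribosome production, was at 150, 134 and 143 CPM against 62.7, 63.0 and 61.9 CPM in attached and at 122, 113 and 112 CPM against 37.5, 41.0 and 37.1 CPM in floating cells.

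The change of MYC was -1.18 ± 0.050 (SE, adjusted p = 1.3e-16) in attached and -1.59 ± 0.054 (adjusted p = 1.2e-18) in floating cells. Its partner MAX was higher by 0.50 ± 0.056 (adjusted p = 2.7e-08) in attached and 0.27 ± 0.056 (adjusted p = 0.00013) in floating cells. RPTOR, the scaffold of mTOR complex 1, was higher by 0.78 ± 0.094 (adjusted p = 8.6e-08) in floating cells, where GFI1 libraries were at 127, 165 and 103 CPM against 74.3 to 79.7 CPM in controls. The 3 floating GFI1 libraries of RPTOR were wide apart, and all lay above the controls.

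Ribosome biogenesis factors mostly fell with GFI1 and with suspension of control cells. Of 57 tested, 48 were lower and 2 higher with GFI1 in each state, with medians of -0.52 and -0.50. For all genes tested, the shares with GFI1 were 32.8% lower and 29.5% higher in attached and 31.1% and 29.3% in floating cells. With suspension 39 were lower and 4 higher in control cells (median -0.32), and 37 were lower and 1 higher in GFI1 cells (median -0.24). NOLC1, a nucleolar chaperone of small nucleolar ribonucleoproteins, was at 294, 289 and 294 CPM in attached control and 139, 146 and 144 CPM in attached GFI1 libraries, a change of -1.03 ± 0.043 (SE, adjusted p = 8.4e-17). It fell by 0.54 on the log2 scale with suspension of control cells. The difference between the biogenesis and ribosomal protein lists was not tested.

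FBL, the methyltransferase of ribosomal RNA, was at 434, 426 and 415 CPM in attached control and 267, 275 and 250 CPM in attached GFI1 libraries. Floating control libraries had 468, 463 and 478 CPM of FBL against 241, 257 and 246 CPM, a change of -0.92 ± 0.043 (SE, adjusted p = 1.1e-15). DDX10, a helicase of small subunit assembly, was higher with GFI1, by 0.16 ± 0.057 attached (adjusted p = 0.019) and 0.23 ± 0.061 floating (adjusted p = 0.0019). The attached call of DDX10 was lost without the low-count filter (adjusted p = 0.10) and without attached control replicate 3 or attached GFI1 replicate 3 (adjusted p = 0.088 and 0.10). UBTF, a factor of RNA polymerase I, was higher by 0.12 ± 0.044 (adjusted p = 0.023) and 0.28 ± 0.045 (adjusted p = 7.2e-06).

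Mitochondrial ribosomal protein genes were lower in 58 and higher in 2 of 77 tested cases in attached cells (median -0.31), and 57 were lower and 2 higher when floating (median -0.34). Suspension of control cells lowered 37 of them (48.1%), with a median of -0.16. With GFI1 the shares lower were 75.3% in attached and 74.0% in floating cells. Among all genes tested, 32.8% and 31.1% were called lower with GFI1, and 29.5% and 29.3% higher. With suspension of control cells, 20.6% of all genes were called lower. Ribosomal protein pseudogenes, whose reads can come from the parent genes, passed the filter in 85 of 1132 cases. GFI1 lowered 43 (50.6%) and raised 3 of these in attached cells (median -0.43), and lowered 42 (49.4%) and raised 2 in floating cells (median -0.51). Pseudogene counts amounted to 3.70% to 3.96% of member counts in every library.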

How the data were processed

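RNA was taken from control and GFI1-expressing A549 cells, attached or floating, in 12 libraries, 4 groups of 3. The authors deposited raw counts of reads per gene. The paper names poly-A selection, the NovaSeq system, FastQC, Hisat2 alignment to GRCh38 and featureCounts, whereas the submitters' processing notes list Bowtie2, HTSeq and hg38, and which set made the table was not settled. The annotation release, strandedness and the treatment of multi-mapping reads are not given in the sources used here. Reads from overlapping genes, antisense genes and near-identical pseudogenes may therefore be split or lost, which bears on ribosomal protein genes in particular. The other columns describe genes, and 0 further columns of sample values were left unused.

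From the deposited counts, genes were kept with filterByExpr (minimum count 10, total 15), scaled by TMM (factors 0.940 to 0.971 in control and 1.04 to 1.06 in GFI1 libraries) and tested in one fit of 4 group means over 12 libraries with edgeR 4.0.16 in R 4.3.3 (glmQLFit, glmQLFTest, two-sided, adjusted p of at most 0.05, no fold threshold). The biological coefficient of variation was 4.86%. Totals of 17014188 to 20748677 counts put 71 members at a mean of at least 100 CPM, and at 3 counts or fewer a gene was taken as at the floor. The study's own test was DESeq2, which was run here (version 1.42.0) as an alternative. Levels per length used GENCODE v44. Ratios of paralog to parent used a pseudocount of 0.5 counts. In a test on simulated data with 200 of 17829 genes changed by 1 log2 unit, 96.5% of the changed genes were recovered for GFI1 in attached and 98.5% in floating cells. The planted changes went in both directions and were larger than the members' medians of -0.46 and -0.57. The simulation therefore does not cover changes of that size or the scaling between libraries.

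Named genes were, per comparison, the 3 members with the highest and 3 with the lowest change and the lowest adjusted p of each subunit, with the paralog pairs, 5S and stalk proteins, the 3 highest and 3 lowest levels per length, the lowest adjusted p of each other list in each direction with GFI1, and GFI1. The members and lists were chosen with earlier results of these data known. Some genes these rules name are not reported here. Replicate numbers did not pair the samples: the deviations of same-numbered libraries had correlations from -0.016 to 0.0089 over 12 pairs. Alternatives were DESeq2, other scalings (RLE, upper quartile, library size only, TMM without the members), other count filters, a robust prior, fits on the compared groups alone, an offset for gene length, the replicate number as a block (also together with that offset), a fold threshold and the removal of single libraries. One more, only members of at least 100 CPM, was chosen after seeing the data.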

Additional observations from a re-analysis of the deposited data

Results flagged for a closer look

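For 7 genes the GFI1 effect differed between floating and attached cells by the interaction test (edgeR's quasi-likelihood test, Benjamini-Hochberg adjusted over all genes). Of the ribosomal protein genes, the log2 difference, floating minus attached, was -0.23 ± 0.064 for RPS16 (SE, adjusted p = 0.018), -0.25 ± 0.072 for RPL15 (adjusted p = 0.027) and -0.28 ± 0.088 for RPL29 (adjusted p = 0.041). The call of RPL29 was lost when any one of 7 of the 12 libraries was left out (adjusted p from 0.062 to 0.15). The calls of RPS16 and RPL15 were lost as well without attached control replicate 3, attached GFI1 replicate 1 or attached GFI1 replicate 2. The difference was -0.55 ± 0.10 for the paralog RPL22L1 (adjusted p = 0.00060), -0.40 ± 0.074 for MYC (adjusted p = 0.00049) and -0.24 ± 0.061 for FBL (adjusted p = 0.012). For NOLC1 it was 0.22 ± 0.061 (adjusted p = 0.017), the reverse sign. Among all genes tested, 10.8% had an interaction in either direction, beside 5% of the ribosomal protein members.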

How the results depend on the processing

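The fall of the members with GFI1 held its direction under each alternative run, with 75 to 77 lower members in attached and 76 to 79 in floating cells when one library was left out. The smaller counts under suspension and interaction moved with single libraries and settings, and the causes were not tested. Depth limits RPL3L, RPL10L and RPS10, whose counts per library were the lowest, and p-values cover the spread between these libraries only.

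Scaling by library size alone moved the median of all genes by 0.15 in attached and 0.13 in floating cells. The members' medians then were -0.313 and -0.438, still 0.45 and 0.58 below all genes, with 1 member higher with GFI1 in attached cells, 9 higher with suspension of control cells and 7 with a negative interaction. The GFI1 changes reversed sign to 0.097 for RPL15, 0.065 for RPL26L1 and 0.065 for RPL36AL in attached cells, and to 0.029 for RPS27L and 0.013 for RPL36AL in floating cells. Upper quartile scaling gave a median of -0.520 with GFI1 in floating cells, 9 members higher with suspension of control cells, 0.0026 for RPL15 in attached cells, and 0.0039 for RPL36AL and 0.0024 for RPL22 with suspension of GFI1 cells. EEF1D in floating cells, 0.00059 as reported, was -0.0023 with RLE, -0.0017 with TMM without the members, -0.0015 without the low-count filter and -0.0022 with DESeq2.

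Without the low-count filter RPS27L changed by -0.0040 in attached cells and 7 members had a negative interaction. The members higher with suspension of control cells were 6 with at least 10 counts in every library, 10 with only those groups and 6 with DESeq2, which gave 9 negative interactions. With the gene length offset, 1 was higher and 18 lower with suspension of control cells, 0 higher and 35 lower with that of GFI1 cells, and the changes were -0.031 for RPL36AL and -0.042 for RPS27 (control cells) and -0.0042 for RPL39 (GFI1 cells). A log2 change of at least 1 as well left 1 and 3 lower members with GFI1 in attached and floating cells, and 0 in either direction with suspension or interaction.

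The replicate numbers did not pair the samples. With the replicate block, 77 and 78 members were lower with GFI1, 3 higher and 9 lower with suspension of control cells, 1 higher and 25 lower with that of GFI1 cells and 5 had a negative interaction, and EEF1D changed by -7.1e-05. With the replicate block and the gene length offset, the suspension counts were 1 higher and 17 lower in control and 34 lower in GFI1 cells, with -0.031 for RPL36AL, -0.043 for RPS27 and -0.0042 for RPL39.

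Without mitochondrially encoded counts, the members held 5.63%, 4.53%, 5.70% and 4.22% of counts in attached control, attached GFI1, floating control and floating GFI1 libraries. With pseudogenes added the first 3 were 5.44%, 4.41% and 5.50%, and of protein-coding counts the shares were 4.39% in attached GFI1 and 5.48% in floating control libraries.

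Leaving out one library at a time gave 1 to 9 higher members with suspension of control cells, 0 to 1 higher and 16 to 41 lower with that of GFI1 cells, and 0 to 1 positive and 0 to 18 negative interactions. The medians ran from -0.139 to -0.053 with suspension of GFI1 cells and from -0.148 to -0.060 for the interaction. Small changes that crossed 0 were RPS27L (-0.017 to 0.060) with GFI1 in attached and EEF1D (-0.023 to 0.034) in floating cells. With suspension of control cells these were RPL36AL (-0.019 to 0.052), RPS27 (-0.032 to 0.047) and RPL3L (-0.140 to 0.654), and with that of GFI1 cells RPL10 (-0.022 to 0.079), RPL22 (-0.060 to 0.028), RPL36AL (-0.041 to 0.031) and RPL39 (-0.031 to 0.060). The log2 ratio of RPL3L to RPL3 ran from -0.267 to 0.452 with GFI1 in attached cells and from -0.104 to 0.615 with suspension of control cells, and that of RPL7L1 to RPL7 from -0.027 to 0.023 with GFI1 in attached cells.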
